A study of Mus musculus with 8 samples.

Results

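Collagens are the triple-helical proteins of the extracellular matrix, and each of their chains is encoded by a gene of its own. The 44 collagen chain genes described here are all the genes of the deposited count matrix, which lists 55487, whose symbol has the form Col, a type number, the letter a and a chain number. RNA sequencing had been used to ask which genes differ in the tumor host when the circadian clock gene Bmal1 is deleted. MC38 colon cancer cells labelled with GFP were implanted under the skin of Bmal1+/+ mice and of Bmal1-/- mice, and the GFP-negative stromal vascular fraction was sorted from the tumors. There were 4 libraries labelled with each genotype, with 1 library per sample. Both genotypes carried the same tumor cells, in which Bmal1 was not deleted, and Bmal1-/- mice came from Bmal1+/- breeders, so the gene was absent from the whole host and not from 1 cell type. C57BL/6 wild-type mice had also been purchased for the study, and whether the Bmal1+/+ mice of these libraries were littermates, their age, their sex and the time of day of collection are not given in the sources used here.

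Fibrillar collagens such as types I, III and V build the tensile fibers that fibroblasts and, in liver, stellate cells lay down in fibrosis. Type IV collagen forms the sheet-like network of basement membranes under endothelium and epithelium, types XV and XVIII are multiplexins attached to that zone, and the FACIT collagens sit on the surface of fibrils. Because a triple helix holds chains in fixed numbers, for example a pair of alpha1(I) chains with a single alpha2(I) chain, the proportions of chains are of interest beside their levels.

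The labels and the tissue were examined first. Library totals lay between 14054825 and 18449143 counts, and the detection floor was set at 3 counts, or 0.163 to 0.213 CPM (read counts scaled to a common library total), which covers counting error only. Bmal1 itself (gene symbol Arntl) had 0.960 to 2.71 normalized CPM in the Bmal1+/+ libraries and 30.1 to 35.0 CPM in the Bmal1-/- libraries, which goes against the labels of both groups. The counts are per gene, so reads from a deleted exon cannot be separated from those of the rest of the transcript. Both groups are therefore named by their labels only, as the Bmal1+/+ libraries and the libraries labelled Bmal1-/-. Xist had 844 to 1095 CPM in the Bmal1+/+ libraries and at most 0.749 CPM in the libraries labelled Bmal1-/-, whereas 4 Y chromosome genes had 0 counts in the former and were counted in every one of the latter. Genotype label and sex transcripts therefore cannot be told apart in any comparison here. The 10 hepatocyte markers summed to 101463 to 114104 CPM in the Bmal1+/+ libraries and 58094 to 70057 CPM in the libraries labelled Bmal1-/-, although the samples were labelled as tumor stroma. Alb, which encodes albumin, set this difference. The other 9 summed to 37146 to 42232 and 41069 to 57312 CPM in the same order and overlapped, and of the 10 markers 1 (Alb) was lower and 2 (Apoa1 and Fgb) were higher, with a median log2 fold change of -0.02. In the same order, 12 fibroblast and stellate cell markers summed to 220 to 323 and 151 to 183 CPM, 8 endothelial markers to 232 to 270.3 and 154 to 219.8 CPM, and 7 macrophage markers to 545 to 665 and 253 to 480.3 CPM. Of those tested, 5 of 11 fibroblast and stellate cell markers, 5 of 8 endothelial and 6 of 7 macrophage markers had adjusted p below 0.05 and were lower in the libraries labelled Bmal1-/-, and 0 were higher, where 16.2% of all genes tested were lower and 14.9% higher by the same rule. Of the smaller lists, 4 T and B cell markers were tested and 0 were called, 2 biliary and tumor epithelial markers were lower and 2 higher, with the intestinal factor Cdx2 at 0 counts in all libraries, and 1 of 2 smooth muscle markers was lower. A lower number of cells of a type and less RNA per cell cannot be told apart in such bulk samples, and the part of these markers in the collagen results was not tested. Acute phase genes summed to 36966 CPM in replicate 4 of the libraries labelled Bmal1-/- against at most 4295 CPM in every other library.

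Of the 44 chains, 22 had enough counts to be tested and 22 did not. Among the 22 tested chains, 9 had lower and 4 had higher levels in the libraries labelled Bmal1-/- (edgeR's quasi-likelihood test, adjusted p below 0.05), or 40.9% and 18.2%. These shares stand beside the 16.2% and 14.9% of all 14353 genes tested, so the share of higher chains was near the background and the share of lower chains was above it. The 9 lower chains were Col1a2, Col3a1, Col5a1, Col5a2 and Col27a1 of the fibrillar class, the basement membrane chain Col4a3, the FACIT chain Col14a1, the beaded filament chain Col6a3 and the multiplexin Col15a1. The 4 higher chains were the fibrillar Col5a3, the basement membrane chains Col4a1 and Col4a2 and the multiplexin Col18a1. The median log2 fold change was -0.50 over the 22 chains and 0.02 over all genes tested. When chains were instead selected as the study did, by a log2 fold change beyond 1 in either direction with p below 0.05 before adjustment, 6 chains were lower and 3 higher, beside 8.71% and 5.41% of all genes. The normalized CPM of the groups did not overlap for 14 of the 22 chains, or 63.6%, against 33.4% of all genes tested.

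**Figure D1:**
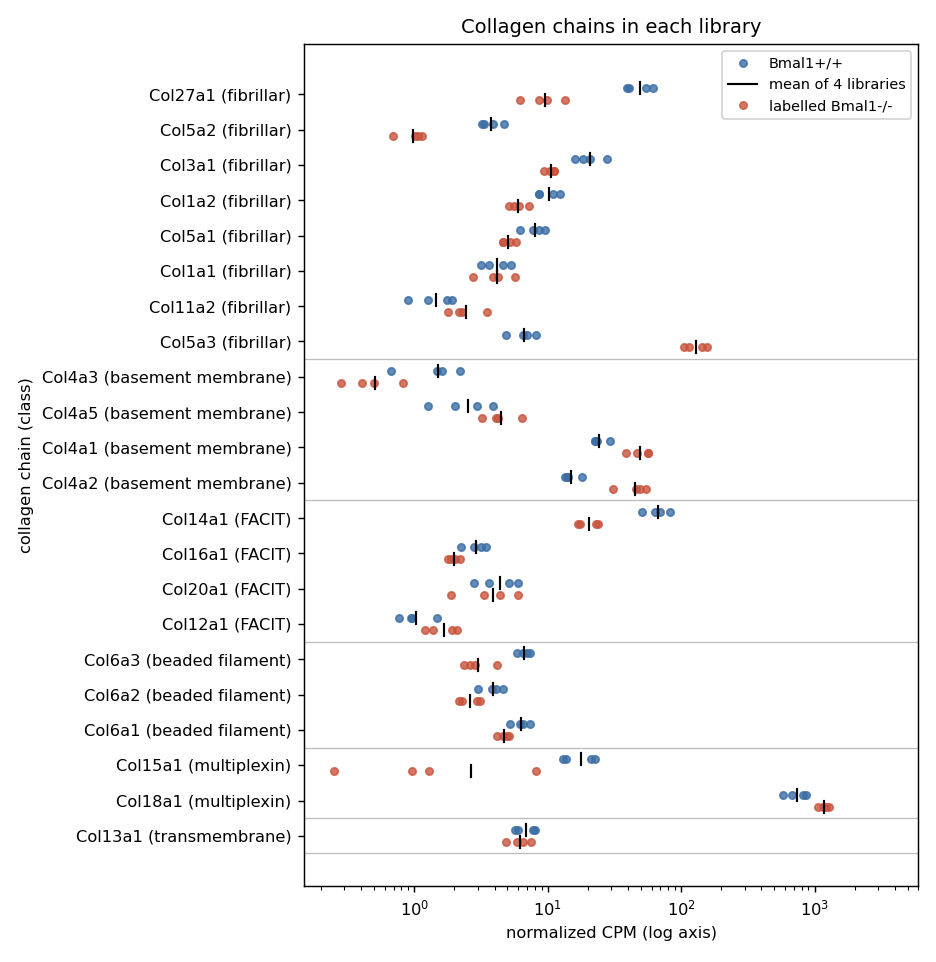
Normalized CPM on a log axis of the 22 collagen chains that were tested, by class, with 1 point per library (blue, 4 Bmal1+/+ libraries and red, 4 libraries labelled Bmal1-/-) and a black bar at each mean. Col5a3 lay at 4.88 to 8.13 CPM in the Bmal1+/+ libraries and at 104 to 156 CPM in the others, and Col18a1 was above every other chain in all 8 libraries.

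Col5a3 encodes the alpha3 chain of type V collagen, a minor fibrillar collagen that is built into type I fibrils and regulates their diameter. Its CPM in replicates 1 to 4, the order used for all values below, were 4.88, 6.98, 8.13 and 6.51 in the Bmal1+/+ libraries and 156, 144, 115 and 104 in the libraries labelled Bmal1-/-. Every library of the second group thus lay above every library of the first. The gene (ENSMUSG00000004098, chromosome 9 of GRCm38, 20770050 to 20815067, minus strand) had the largest difference of the tested chains, with a log2 fold change of 4.29 (SE 0.20, adjusted p = 9.7e-07, edgeR's quasi-likelihood test), a 19.6-fold higher level. Mean CPM were 6.62 ± 1.35 (SD, n = 4) and 129.9 ± 24.2 (SD, n = 4).

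The other tested type V chains went the opposite way. Col5a1, the alpha1 chain found in most type V molecules, had 8.61, 9.48, 6.25 and 7.74 CPM in the Bmal1+/+ libraries and 4.62, 5.19, 4.63 and 5.83 CPM in the libraries labelled Bmal1-/-. Col5a2, the alpha2 chain, had 3.31, 4.67, 3.22 and 3.90 CPM against 1.06, 0.693, 1.14 and 1.02 CPM. Neither chain overlapped between the groups. Col5a1 fell by 0.66 on the log2 scale (SE 0.17, adjusted p = 0.015, edgeR) and Col5a2 fell by 1.94 (SE 0.23, adjusted p = 3.0e-04, edgeR). Between 10 and 17 counts stood behind each Col5a2 value in the libraries labelled Bmal1-/-.

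Type I and type III collagen, the bulk collagens of fibrotic tissue, were low in all libraries. Col1a1, which encodes the alpha1 chain of type I, had 3.61, 4.61, 3.16 and 5.35 CPM in the Bmal1+/+ libraries and 3.87, 5.68, 2.78 and 4.27 CPM in the libraries labelled Bmal1-/-. These ranges overlapped throughout, and the log2 fold change was -0.01 with a 95% interval from -0.58 to 0.55 (adjusted p = 0.98, edgeR's quasi-likelihood test). Its sign depended on the scaling and turned with library size only. Col1a2, which encodes the partner alpha2 chain, had 8.67, 11.0, 8.67 and 12.3 CPM against 6.12, 5.61, 5.12 and 7.19 CPM, with no overlap. Col3a1, whose product forms homotrimers in loose and early scar matrix, had 18.4, 20.9, 16.1 and 27.9 CPM against 11.2, 11.1, 9.47 and 10.4 CPM. The lowest Bmal1+/+ library thus lay above the highest library of the other label for both. Col1a2 fell by 0.76 (SE 0.17, adjusted p = 0.0085, edgeR) and Col3a1 fell by 0.98 (SE 0.17, adjusted p = 0.0023, edgeR) on the log2 scale. Col3a1 shares exon bases with the predicted gene Gm47302 on the same strand.

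Col27a1, a fibrillar chain best known from cartilage, had the highest mean CPM of the fibrillar chains in the Bmal1+/+ libraries. It had 61.1, 54.8, 39.4 and 40.9 CPM there and 8.68, 9.90, 13.4 and 6.17 CPM in the libraries labelled Bmal1-/-, again without overlap. The chain fell by 2.36 on the log2 scale (SE 0.24, adjusted p = 1.1e-04, edgeR), a 5.15-fold lower level. Col11a2, a chain of the cartilage collagen type XI, had a log2 fold change of 0.75 (adjusted p = 0.091, edgeR), and its groups overlapped. Over the fibrillar class, 5 of 8 tested chains were lower, 1 was higher and 2 were not called, or 62.5% lower and 12.5% higher beside 16.2% and 14.9% of all genes, with a median log2 fold change of -0.71. Of 11 tested fibroblast and stellate cell markers, 5 were lower and 0 were higher, with a list median of -0.70. Among the lower markers were Dcn at -0.70 (adjusted p = 0.0038, edgeR) and Lrat, the retinol esterifying enzyme of stellate cells, at -1.11 (adjusted p = 0.0033, edgeR). The other tested markers, from Pdgfra at -0.15 to Acta2 at -1.14, were not called. The relation of these markers to the fibrillar chains was not tested.

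**Figure D2:**
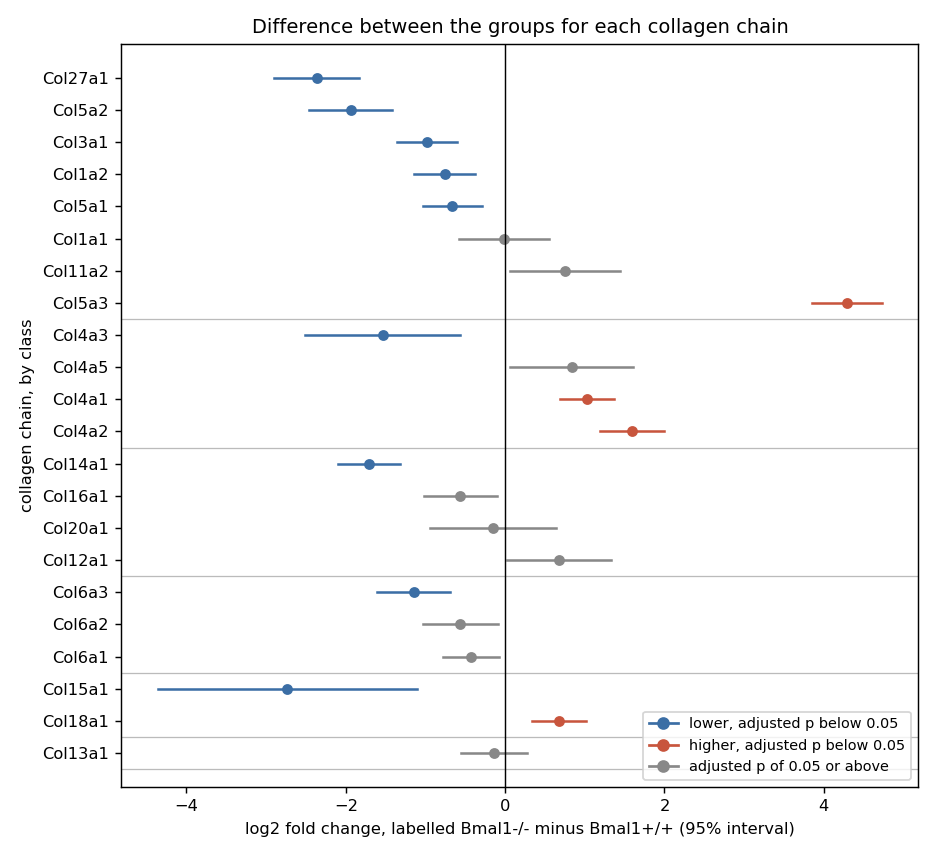
Log2 fold change (libraries labelled Bmal1-/- minus Bmal1+/+ libraries) of the 22 tested chains with 95% intervals from edgeR's quasi-likelihood fit, in the class order of the plot of CPM by library. Blue marks the 9 chains that were lower, red the 4 that were higher and grey the 9 that were not called, and Col5a3 stands apart from the other fibrillar chains at 4.29.

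The tested basement membrane chains differed in direction, and only for Col4a1 and Col4a2 were both chains of a head-to-head pair tested. Col4a1 and Col4a2 encode the alpha1 and alpha2 chains that form the type IV network of nearly all basement membranes. Col4a1 had 23.4, 29.3, 22.4 and 22.4 CPM in the Bmal1+/+ libraries and 56.5, 46.5, 38.5 and 56.8 CPM in the libraries labelled Bmal1-/-. Col4a2 had 14.03, 18.1, 14.2 and 13.5 CPM against 45.6, 54.1, 30.9 and 49.3 CPM. In both, the lowest library labelled Bmal1-/- (replicate 3) lay above the highest Bmal1+/+ library (replicate 2). The log2 fold change was 1.02 for Col4a1 (SE 0.15, adjusted p = 9.8e-04, edgeR) and 1.59 for Col4a2 (SE 0.18, adjusted p = 2.0e-04, edgeR). The genes lie head to head on chromosome 8 of GRCm38, Col4a1 from 11198423 to 11312826 on the minus strand and Col4a2 from 11312805 to 11449287 on the plus strand, and overlap by 22 bases. Of the 8 endothelial markers, 5 were lower, such as Kdr (log2 fold change -0.64, adjusted p = 0.0048, edgeR). Emcn, Vwf and Stab2 were not called, at -0.31, -0.25 and -0.06, and the list median was -0.50. The relation of these markers to the pair was not tested.

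Col4a3, Col4a4 and Col4a5 encode the chains of the type IV collagen of the kidney glomerulus. Col4a3 had 1.63, 1.47, 2.22 and 0.668 CPM in the Bmal1+/+ libraries and 0.500, 0.831, 0.285 and 0.407 CPM in the libraries labelled Bmal1-/-. Replicate 4 of the Bmal1+/+ libraries fell inside the range of the other label. The log2 fold change was -1.54 (SE 0.44, adjusted p = 0.024, edgeR), on counts as low as 4, and the call was lost when replicate 1 or 3 of the Bmal1+/+ libraries or replicate 1, 3 or 4 of the other label was left out (adjusted p between 0.051 and 0.065). The gene overlaps C430014B12Rik on the opposite strand, and strand use in the counting is not stated. Col4a5, on the X chromosome, had a log2 fold change of 0.84 (adjusted p = 0.093, edgeR), and Col4a4 was not tested, with at most 20 counts. Of 4 tested basement membrane chains, 2 were higher and 1 was lower, beside 14.9% and 16.2% of all genes, with a median log2 fold change of 0.93.

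The multiplexins differed in both level and direction. Col18a1, whose product is a heparan sulfate proteoglycan of basement membranes that gives rise to endostatin, had 682, 860.1, 821 and 579.9 CPM in the Bmal1+/+ libraries and 1273, 1151, 1067 and 1215 CPM in the libraries labelled Bmal1-/-. The groups did not overlap, and the log2 fold change was 0.68 (SE 0.15, adjusted p = 0.0086, edgeR). The gene (ENSMUSG00000001435) spans 77052178 to 77166548 on the minus strand of chromosome 10. Col15a1, which links basement membranes to the fibrils below them, had 22.8, 12.9, 13.8 and 21.2 CPM against 0.250, 0.970, 1.28 and 8.14 CPM. All libraries labelled Bmal1-/- lay below the Bmal1+/+ libraries, but replicate 4 stood apart from the other 3 of its label. Col15a1 fell by 2.74 on the log2 scale (SE 0.73, adjusted p = 0.018, edgeR). Its counts in the libraries labelled Bmal1-/- were 4, 14, 18 and 120. Without replicate 4 it fell by 4.42, and without replicate 3 the call was lost (adjusted p = 0.051). Replicate 4 is also the library with the high acute phase sum, whose part in this value was not tested.

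Among the FACIT collagens, Col14a1 was the abundant member. Type XIV binds to the surface of type I fibrils and is used as a marker of fibroblasts. It had 63.4, 70.0, 50.9 and 82.1 CPM in the Bmal1+/+ libraries and 23.0, 24.0, 17.01 and 17.6 CPM in the libraries labelled Bmal1-/-, with no overlap. The log2 fold change was -1.71 (SE 0.17, adjusted p = 1.1e-04, edgeR), a 3.27-fold lower level. Of 11 tested fibroblast and stellate cell markers 5 were lower too, as were 5 of 8 endothelial and 6 of 7 macrophage markers. Their relation to Col14a1 was not tested. The other 3 tested FACIT chains were not called, with log2 fold changes of -0.56 for Col16a1, -0.15 for Col20a1 and 0.68 for Col12a1 and adjusted p of 0.065, 0.77 and 0.11 (edgeR). The Col16a1 groups only just failed to overlap, at 2.227 to 3.457 CPM in the Bmal1+/+ libraries and 1.779 to 2.216 CPM in the others. The nearest libraries of these groups had 40 and 32 counts. Col12a1 and Col20a1 did overlap. The sign of Col20a1 turned when replicate 2 of the Bmal1+/+ libraries or replicate 4 of the other label was left out.

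Type VI collagen forms beaded filaments around cells from the alpha1, alpha2 and alpha3 chains. Col6a1 had 6.20, 6.53, 5.24 and 7.41 CPM in the Bmal1+/+ libraries and 4.93, 4.16, 5.12 and 4.61 CPM in the libraries labelled Bmal1-/-. Col6a2 had 3.01, 4.10, 3.83 and 4.62 CPM against 2.94, 2.29, 3.13 and 2.17 CPM. Col6a3 had 6.98, 7.43, 5.84 and 6.51 CPM against 4.18, 2.84, 2.63 and 2.37 CPM. Only Col6a2 overlapped between the groups, and only Col6a3 was called. It fell by 1.15 on the log2 scale (SE 0.20, adjusted p = 0.0026, edgeR), while Col6a1 and Col6a2 had log2 fold changes of -0.43 (95% interval -0.79 to -0.08, adjusted p = 0.064) and -0.56 (95% interval -1.03 to -0.10, adjusted p = 0.067). Whether Col6a3 differs from its partners in its fold change was not tested. The single tested transmembrane chain, Col13a1, had a log2 fold change of -0.14 (95% interval -0.56 to 0.27, adjusted p = 0.60, edgeR).

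The 22 chains that were not tested had at most 20 counts in a library. No count was recorded in any of the 8 libraries for Col4a6, Col9a1, Col19a1 and Col26a1, and the highest count was 1 to 3 for the 8 chains Col2a1, Col11a1, Col10a1, Col9a2, Col22a1, Col6a4, Col17a1 and Col28a1, so that a level up to the floor of 0.163 to 0.213 CPM would not have been detectable in a library without a count. The remaining 10, Col24a1, Col4a4, Col8a1, Col8a2, Col9a3, Col6a5, Col6a6, Col23a1, Col25a1 and Col7a1, had a highest count between 4 and 20. The cartilage chains of types II, IX and X, the epidermal chains Col7a1 and Col17a1 and all 3 network chains belonged to this set.

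Summed over all 44 genes, collagen counts made up 0.0838% to 0.112% of the Bmal1+/+ libraries and 0.133% to 0.167% of the libraries labelled Bmal1-/-. A single gene set this sum. Col18a1 held 67.4% to 78.2% of the collagen counts in the first group and 77.1% to 80.0% in the second. Without it, the summed CPM of the other 43 chains overlapped, at 229 to 293 and 269 to 361. Without Col5a3 as well, the remaining 42 chains summed to 221 to 286 CPM in the Bmal1+/+ libraries and to less, 154 to 205 CPM, in the libraries labelled Bmal1-/-. The Col5a3 share of collagen counts went from 0.513% to 0.774% in the first group to 6.88% to 9.64% in the second. Col4a1 and Col4a2 together had 35.9 to 47.4 and 69.4 to 106 CPM, and the 9 lower chains together had 147 to 203 and 54.9 to 61.1 CPM. These sums were formed after the values of the chains had been seen and describe the libraries, with no test.

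**Figure D3:**
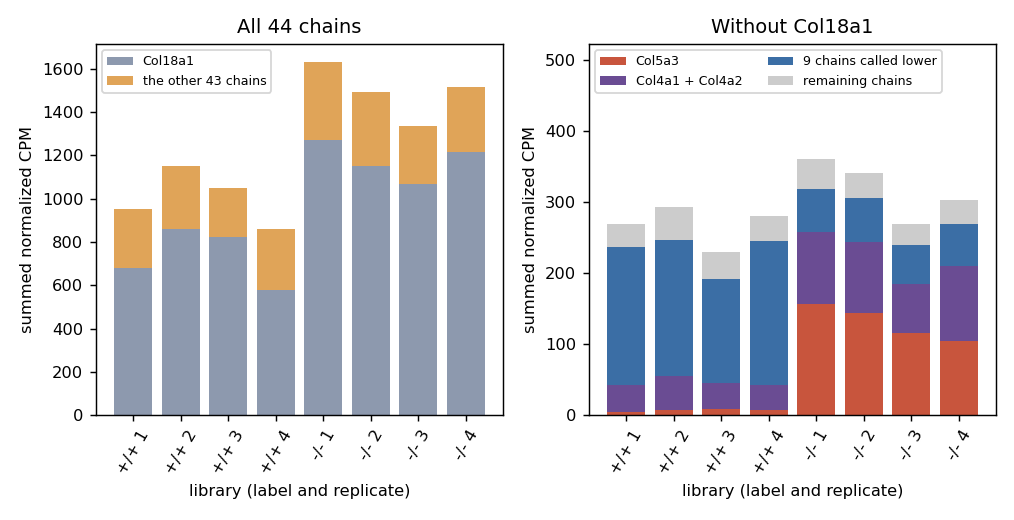
Summed normalized CPM of the collagen chains in each of the 8 libraries, stacked, for all 44 chains (left) and without Col18a1 (right). The left bars are mostly Col18a1, and on the right Col5a3 with Col4a1 and Col4a2 fills most of each bar of the libraries labelled Bmal1-/-, whereas the 9 lower chains fill most of each Bmal1+/+ bar.

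Levels of different chains were compared per length, as the authors' FPKM (fragments per kilobase, scaled to the library total), which use 1 fixed length per gene. What that length spans is not stated, and levels between genes depend on it, whereas a difference between libraries does not. Col18a1 was first in both groups, with a mean of 82.3 FPKM in the Bmal1+/+ libraries and 134 FPKM in the libraries labelled Bmal1-/-. Next in the Bmal1+/+ libraries came Col14a1 with 7.49 ± 1.35 (SD, n = 4), Col27a1 with 2.87 ± 0.632 and Col4a1 with 2.39 ± 0.293 FPKM. The ranges of Col27a1 and Col4a1 overlapped. In the libraries labelled Bmal1-/- the next were Col5a3 with 19.0 ± 3.92, Col4a2 with 6.61 ± 1.51 and Col4a1 with 4.95 ± 0.872 FPKM, and the ranges of the last pair overlapped. By mean, Col5a3 thus moved from rank 10 to rank 2 of the tested chains. Its range in the Bmal1+/+ libraries overlapped those of chains of nearby rank, among them Col13a1 and Col5a1. Col1a1, at a mean of 0.594 FPKM in the Bmal1+/+ libraries, had rank 14 there, with a range that overlapped that of Col1a2.

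Ratios between chains, most of them of the same collagen type, were read from the FPKM of the same library, so that differences in depth and scaling drop out. The ratio of Col1a1 to Col1a2 was 0.852 to 1.02 in the Bmal1+/+ libraries and 1.27 to 2.37 in the libraries labelled Bmal1-/-. That of Col3a1 to Col1a1 was 2.93 to 3.37 and 1.26 to 2.20, and that of Col4a2 to Col4a1 was 0.882 to 0.933 and 1.18 to 1.71. None of these 3 ratios overlapped between the groups. For type V, Col5a3 over Col5a1 was 0.775 to 1.78 and 24.5 to 46.2, and Col5a2 over Col5a1 was 0.360 to 0.483 and 0.1249 to 0.231. For type VI, Col6a3 over Col6a1 was 0.292 to 0.377 and 0.170 to 0.281, and Col6a2 over Col6a1 overlapped, at 0.261 to 0.392 and 0.253 to 0.328. Col4a4 over Col4a3, which rests on few counts, and Col4a1 over Col18a1 overlapped too. The pairs were chosen with the values in view, and no test was run on them.

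**Figure D4:**
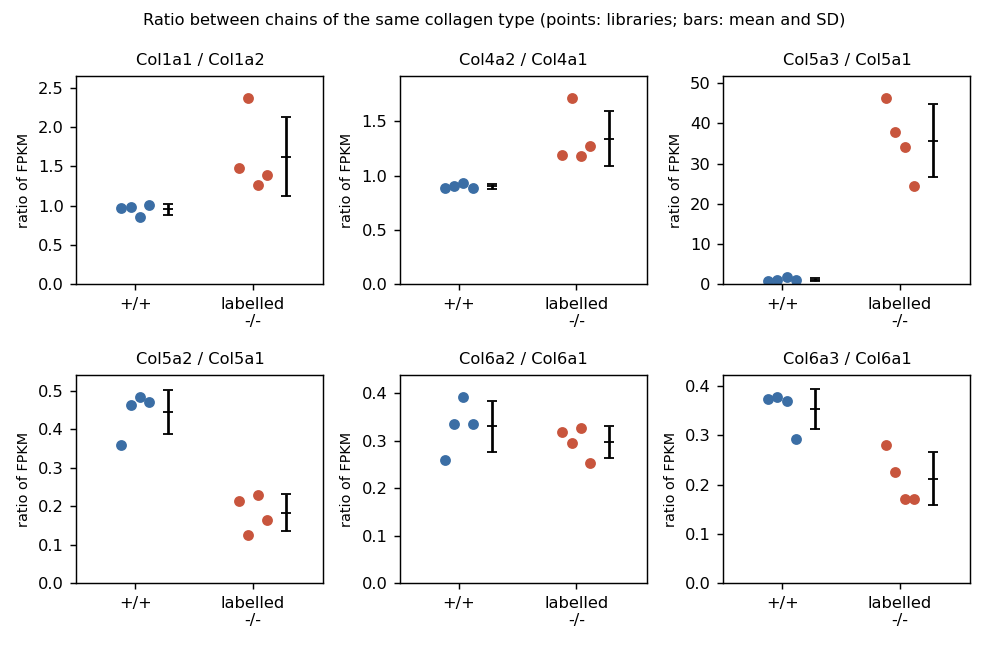
Ratio of the FPKM of chains of the same collagen type in each library (points, blue for Bmal1+/+ and red for the libraries labelled Bmal1-/-), with the mean and SD of 4 libraries beside them in black. The groups overlap for Col6a2 over Col6a1 and are separate for the other 5 ratios, most widely for Col5a3 over Col5a1.

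Position in the genome was compared with the differences. Col3a1 and Col5a2, both lower, lie tail to tail on chromosome 1 with 24614 bases between them, and the head-to-head pair Col4a1 and Col4a2 was higher together. Col6a1 and Col18a1 lie on the same strand of chromosome 10 at a distance of 326009 bases, with log2 fold changes of -0.43 and 0.68. Promoter sequence was then read from RefSeq (GRCm38.p6) as the 250 bases before each annotated start. Of the 44 chains, 35 matched 38 promoters, and 17 of the 22 tested chains matched 19.

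The promoters of 7 chains are shown, those of all called chains with a promoter of at least 232 bases free of annotated exons, so that higher chains (Col5a3, Col18a1) can be read beside lower ones (Col27a1, Col15a1, Col6a3, Col3a1, Col5a1). They are written 5′ to 3′ on the strand of the gene, and capitals mark matches on either strand to the CCAAT box (CCAAT), the GC box (GGGCGG) and the TATA box (TATAAA). Col15a1 and Col6a3 had no match and are all in lower case. The Col18a1 window has 232 bases, those that lie before its first annotated exon. Another annotated Col18a1 start lies further along the gene. Of the 250 bases before it, 241 lie in exons, no motif matched, and it is not shown. The counts are per gene, so use of the starts cannot be read from them.
Col5a3 promoter, chr9:20815068-20815317 (minus strand): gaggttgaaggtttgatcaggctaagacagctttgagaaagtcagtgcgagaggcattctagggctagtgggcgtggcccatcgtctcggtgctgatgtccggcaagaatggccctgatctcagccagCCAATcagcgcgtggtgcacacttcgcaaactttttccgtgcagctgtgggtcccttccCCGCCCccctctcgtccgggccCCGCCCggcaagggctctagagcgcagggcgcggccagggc
Col18a1 promoter, chr10:77166549-77166780 (minus strand): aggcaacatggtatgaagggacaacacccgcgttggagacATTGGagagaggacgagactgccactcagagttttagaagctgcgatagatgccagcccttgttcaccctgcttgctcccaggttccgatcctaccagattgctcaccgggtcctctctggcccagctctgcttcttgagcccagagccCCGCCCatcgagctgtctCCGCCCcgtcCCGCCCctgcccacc
Col27a1 promoter, chr4:63215162-63215411 (plus strand): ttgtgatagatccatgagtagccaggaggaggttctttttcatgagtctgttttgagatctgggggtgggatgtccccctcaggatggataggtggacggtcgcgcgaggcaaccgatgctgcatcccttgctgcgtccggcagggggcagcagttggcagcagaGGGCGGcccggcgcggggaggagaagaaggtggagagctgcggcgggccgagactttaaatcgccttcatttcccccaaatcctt
Col15a1 promoter, chr4:47207762-47208011 (plus strand): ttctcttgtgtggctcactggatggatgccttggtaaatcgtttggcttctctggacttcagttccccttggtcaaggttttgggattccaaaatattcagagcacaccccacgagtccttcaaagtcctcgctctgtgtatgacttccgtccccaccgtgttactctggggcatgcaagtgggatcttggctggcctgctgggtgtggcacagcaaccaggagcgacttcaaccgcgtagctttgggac
Col6a3 promoter, chr1:90843972-90844221 (minus strand): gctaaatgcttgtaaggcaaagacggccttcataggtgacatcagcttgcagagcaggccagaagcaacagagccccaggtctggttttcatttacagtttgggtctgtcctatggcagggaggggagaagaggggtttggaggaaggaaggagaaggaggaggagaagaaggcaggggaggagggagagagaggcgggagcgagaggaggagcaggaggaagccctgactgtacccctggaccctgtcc
Col3a1 promoter, chr1:45311288-45311537 (plus strand): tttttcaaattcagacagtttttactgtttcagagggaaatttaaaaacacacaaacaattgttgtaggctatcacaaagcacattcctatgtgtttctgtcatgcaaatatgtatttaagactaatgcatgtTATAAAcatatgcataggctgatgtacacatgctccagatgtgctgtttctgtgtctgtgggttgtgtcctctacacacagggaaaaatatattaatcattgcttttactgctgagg
Col5a1 promoter, chr2:27886175-27886424 (plus strand): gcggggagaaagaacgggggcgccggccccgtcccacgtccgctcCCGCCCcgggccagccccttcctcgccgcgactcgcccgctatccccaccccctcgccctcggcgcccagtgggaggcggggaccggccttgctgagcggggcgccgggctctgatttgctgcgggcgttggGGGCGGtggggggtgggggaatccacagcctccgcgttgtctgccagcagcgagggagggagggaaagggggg

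The canonical E-box (CACGTG), the element through which BMAL1 and CLOCK bind DNA, was found in 0 of the 38 promoters of collagen chains and in 6.02% of all 32851 promoters. The CCAAT box was found in 13 of the 38 and in 33.8% of all promoters, the GC box in 22 of the 38 and in 32.7% of all, and the TATA box in 5 of the 38 and in 12.4% of all. Both strands were searched, and none of these motifs contains another. Of the 19 promoters of tested chains, 7 held a CCAAT box, 11 a GC box and 3 a TATA box. Both groups of chains held matches, for example Col5a3 and the lower chain Col1a2, which each had a CCAAT box and a GC box. The absence of these letters from a window of 250 bases says nothing of sites elsewhere.

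Other genes of the collagen pathway were taken from a list of 44, of which 37 were tested. Of these, 12 were lower (32.4%), 3 were higher (8.11%) and 22 were not called, with a median log2 fold change of -0.40, beside 16.2% and 14.9% of all genes. The count of lower genes was not stable, at 6 without a filter on low counts and 4 to 10 with each library left out in turn. Of 13 tested genes of hydroxylation and glycosylation, 6 were lower and 2 were higher. The lower ones included P4ha1 and P4ha2, catalytic subunits of prolyl 4-hydroxylase, which makes the hydroxyproline that stabilizes the helix, with log2 fold changes of -0.84 (adjusted p = 0.0056, edgeR) and -0.55 (adjusted p = 0.027, edgeR). The others were P3h2 at -0.78, P3h3 at -0.80, Crtap at -0.40 and Colgalt2, a collagen galactosyltransferase, at -1.71 (adjusted p between 0.024 and 0.042, edgeR). P3h2 had 14 to 42 counts and shares 1055 of its 3721 exon bases with Gm4524 on the opposite strand. Colgalt2 had 2.17, 1.98, 0.739 and 2.23 CPM in the Bmal1+/+ libraries and 0.437, 0.970, 0.640 and 0.136 CPM in the libraries labelled Bmal1-/-, which overlapped.

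P3h1 and Ppib, by contrast, were higher. They encode prolyl 3-hydroxylase 1 and cyclophilin B, which form a complex with the product of Crtap, whose log2 fold change had the other sign. P3h1 had 13.8, 10.9, 11.4 and 10.6 CPM in the Bmal1+/+ libraries and 15.9, 20.1, 22.7 and 25.6 CPM in the libraries labelled Bmal1-/-, without overlap (log2 fold change 0.85, SE 0.16, adjusted p = 0.0036, edgeR). Ppib, at a mean of 136 and 203 CPM, had a log2 fold change of 0.57 (adjusted p = 0.0027, edgeR) and overlaps Snx22 on the opposite strand.

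Among 10 tested genes of folding and secretion, 10% were lower and 0% higher, beside 16.2% and 14.9% of all genes. The only call was Serpinh1, which encodes the collagen chaperone HSP47. It had 12.2, 13.3, 10.9 and 8.91 CPM in the Bmal1+/+ libraries and 7.31, 7.62, 4.77 and 5.29 CPM in the libraries labelled Bmal1-/-. It fell by 0.86 on the log2 scale (SE 0.19, adjusted p = 0.0088, edgeR). Of 5 tested genes of propeptide processing, 40% were lower and 20% higher, beside the same shares of all genes. Bmp1, the C-proteinase of fibrillar procollagens, was higher (log2 fold change 0.59, adjusted p = 0.0017, edgeR). Adamts2, an N-proteinase, and Pcolce2, an enhancer of the C-proteinase, were lower at -0.69 (adjusted p = 0.047, edgeR) and -0.83 (adjusted p = 0.042, edgeR), and both overlapped between the groups.

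Of 9 tested receptors and uptake genes, 3 were lower and 0 were higher, or 33.3% and 0% beside 16.2% and 14.9% of all genes. Ddr2, a tyrosine kinase receptor for fibrillar collagen, had 8.13, 7.94, 6.85 and 8.80 CPM in the Bmal1+/+ libraries and 3.81, 2.35, 3.56 and 4.07 CPM in the libraries labelled Bmal1-/- (log2 fold change -1.20, SE 0.19, adjusted p = 0.0014, edgeR). Ctsk, a lysosomal protease that cleaves collagen, had 0.903, 0.960, 1.07 and 0.835 CPM against 0.562, 0.485, 0.427 and 0.271 CPM (log2 fold change -1.09, SE 0.30, adjusted p = 0.021, edgeR). The groups of both genes were separate. The third was Mrc1, a mannose receptor that takes up collagen fragments, at -0.64 (adjusted p = 0.014, edgeR), which is also counted among the macrophage markers that were lower.

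**Figure D5:**
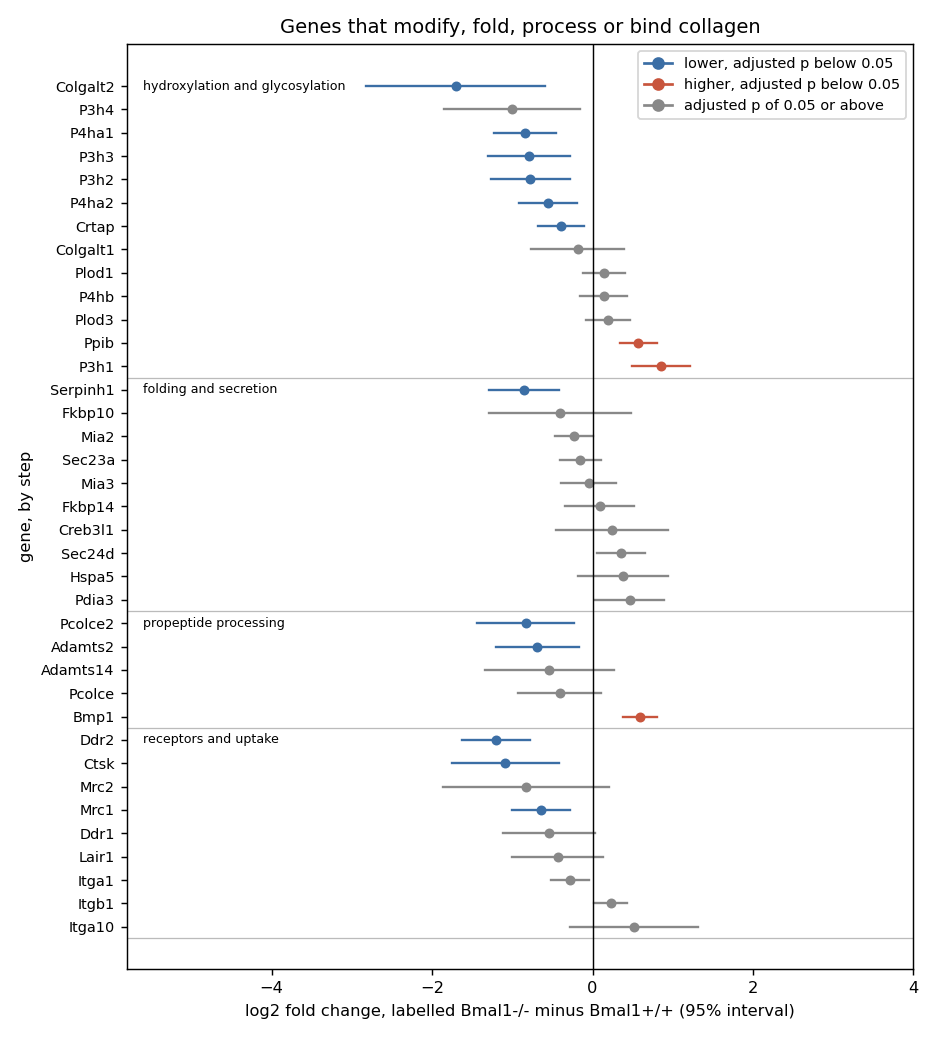
Log2 fold change (libraries labelled Bmal1-/- minus Bmal1+/+ libraries) with 95% intervals from edgeR's quasi-likelihood fit for the 37 tested genes of the collagen pathway list, by step. Blue marks 12 lower genes and red the 3 higher genes P3h1, Ppib and Bmp1, and the other 22 are grey.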

How the data were processed

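Sequencing libraries labelled as tumor stromal vascular fractions, 4 as Bmal1+/+ and 4 as Bmal1-/-, were grouped and numbered by these labels. Per the paper's methods, HISAT2 was used by the authors to align reads to GRCm38 and StringTie to count fragments on genes, whereas the submitters' processing notes name TopHat2 2.0.6 and CASAVA 1.8. The authors deposited raw counts and FPKM. FPKM served for levels between chains only. All columns of values matched a sample (0 unmatched). Symbols are from GENCODE for GRCm38 and 99.4% of 55487 identifiers matched.

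From the counts, 14353 genes passed filterByExpr and were tested in R 4.3.3 with edgeR 4.0.16 (TMM normalization, quasi-likelihood test, default prior count, Benjamini-Hochberg adjustment over all genes tested). The common dispersion was 0.0506. Normalized CPM use TMM library sizes. Library totals were 14054825 to 18449143, and pairs of libraries with the same label differed beyond sampling noise (chi-square per degree of freedom of at least 19.7). Whether each sample came from a single animal is not stated, so p-values measure the spread between these samples. On simulated data the test recovered most large changes and fewer small ones, and its share of false calls was above the nominal level of the adjusted p. The limit first set for this check was missed and was then loosened, so calls near the threshold are less certain than their adjusted p says. Alternatives were DESeq2 1.42.0, limma 3.58.1 (voom), other scalings, filters and prior count, the replicate number as a block, and leaving out each library. Plots used matplotlib 3.10.9 under Python 3.11.15.

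Chains were taken by symbol, and every one is accounted for. Values in every library are given for tested chains with adjusted p below 0.05 and for the main chains of types I, III, IV, VI and XVIII, and of the 44 genes acting on collagen for the 5 called with the largest absolute log2 fold changes. Members and lists were chosen with earlier results of these data known. Ratios, sums and the promoters printed were chosen after values were seen.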

Additional observations from a re-analysis of the deposited data

Results flagged for a closer look

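In 3 of 44 groups of 4 libraries, 1 library lay far from the other 3 (Dixon's test of the gap to the nearest library), where chance gives about 1 in 20. Replicate 2 of the Bmal1+/+ libraries was high for Col4a1, at 29.3 CPM against 22.4 to 23.4 CPM in the other 3, and for its head-to-head neighbour Col4a2, at 18.1 CPM against 13.5 to 14.2 CPM. Replicate 4 of the libraries labelled Bmal1-/- was high for Col15a1, at 8.14 CPM against 0.250 to 1.28 CPM. All 3 chains were called with that library left out.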

How the results depend on the processing

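The calls of 9 lower and 4 higher chains were the same genes with DESeq2, size factors of DESeq2's type in edgeR, library size only, upper-quartile scaling, no filter on low counts, limma-voom and the replicate block. With at least 10 counts required in every library, Col15a1 and Col4a3 were not tested, Col16a1 was called lower as well (adjusted p = 0.044) and the counts were 8 and 4. Leaving out each library in turn gave 7 to 10 lower and 4 to 5 higher chains. Col6a2, Col4a5, Col6a1 and Col16a1 were each called without replicate 1, 2, 3 and 4 of the Bmal1+/+ libraries respectively (adjusted p between 0.034 and 0.049). Col1a1 had a log2 fold change of 0.020 with library size only and -0.20 to 0.12 with each library left out, and Col20a1 had -0.43 to 0.079, none with adjusted p below 0.05. Lower genes that act on collagen numbered 6 without a filter on low counts, 6 with the replicate block and 4 to 10 with each library left out. The scalings moved the median log2 fold change of all genes by at most 0.03. Same-numbered samples had deviations that correlated at -0.06 to 0.06, so the number was not taken to pair the samples, and the block changed no chain call. Depth limits what can be said of the 22 untested chains, of Col4a3 and of Col15a1 in the libraries labelled Bmal1-/-.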
